A study of Homo sapiens with 4 samples.

Results

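The mRNAs of epsins and of the core clathrin endocytosis machinery were examined in RNA immunoprecipitation sequencing (RIP-seq) libraries of HCCLM3 cells, a human hepatocellular carcinoma line. The 10 genes named were the epsins EPN1, EPN2 and EPN3, the clathrin light chains CLTA and CLTB, the clathrin heavy chain CLTC, the AP-2 adaptor subunits AP2A1, AP2B1 and AP2M1, and dynamin 2 (DNM2). EPN1 was chosen by its lower FPKM total in both KIAA1429 libraries, and the other genes as its pathway, so the EPN1 values are a description without a test. Of the 10 genes, 9 were found among 13300 gene names, with 53 of 34975 listed transcripts, and EPN3 was not analysed here. RIP-seq recovers RNA that comes down with a protein from a cell lysate. One group of 2 libraries was precipitated with an antibody against KIAA1429 (KIAA1429 RIP), a subunit of the enzyme complex that writes N6-methyladenosine (m6A) on mRNA, and the other group of 2 libraries with normal IgG (IgG RIP), which gives the background. Both groups came from the same cell line with no further treatment named in the labels.

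Clathrin-mediated endocytosis brings receptors and their ligands into the cell in coated vesicles. The AP-2 complex gathers cargo and clathrin at the plasma membrane, epsins bind membrane lipid, ubiquitinated cargo, AP-2 and clathrin and help to bend the membrane, and dynamin cuts the neck of the pit. In hepatocytes, this route takes up lipoproteins, transferrin and growth factor receptors.

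Values are FPKM, the number of fragments scaled to transcript length and to library depth, given for each transcript, and a gene total is the sum over its listed transcripts. The libraries had FPKM sums between 295573 and 340300, and 26.6% to 32.2% of the listed transcripts were at 0 in each. Read counts were not used here, so depth and counting error are unknown. The labels do not say whether replicates were separate cultures, so p-values measure only the spread between these libraries. Of 12 hepatocyte and hepatoma markers, 11 were listed, with a summed level of 1522 to 1792 FPKM. Most of this sum was KRT18 (820 to 1048 FPKM) and KRT8 (260 to 432 FPKM). The other listed ones ran from 0.305 FPKM (HNF4A) to 143 FPKM (APOA2), with ALB at 53.5 to 76.3 FPKM. Of 6 markers of blood, endothelial, stromal and myeloid cells, only CD68 was listed, at 28.7 to 72.2 FPKM. HNF4A was between 0.305 and 1.11 FPKM, and the markers PTPRC, PECAM1, COL1A1, COL1A2 and VWF were not analysed here. VIRMA, the gene of KIAA1429 itself, had 18.0 and 10.01 FPKM in the IgG RIP and 18.2 and 11.6 FPKM in the KIAA1429 RIP. In such bulk libraries, a cell type that is rarer and one with less RNA per cell cannot be told apart.

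EPN1 (ENSG00000063245.14_3) lies on the plus strand at chr19:56186592-56220899 of GRCh37, and 3 of its transcripts were listed, all of them protein_coding. EPN1-201 has 2355 spliced bases in 10 exons, EPN1-202 has 16219 bases in 11 exons and EPN1-203 has 2621 bases. Every one of the 2355 bases of EPN1-201 is also in EPN1-202. What sets EPN1-202 apart is a run of 13767 bases past the end of EPN1-201, at chr19:56207133-56220899, which makes up 84.9% of its length, together with a coding exon of 75 bases at chr19:56200663-56200737 and 3 coding bases at the start of a later exon. That run lies in the annotated 3′ untranslated region of EPN1-202 and has 50.3% G and C, against 67.9% over EPN1-201. It overlaps the minus-strand gene NLRP9, which was not analysed here, and 2 processed pseudogenes. Reads from overlapping genes cannot be told apart without strand. The junctions that separate both transcripts within the coding sequence are shown because EPN1-201 and EPN1-202 carried nearly all EPN1 signal. Capitals mark the bases that EPN1-202 has and EPN1-201 lacks, which are the first bases of the 75-base exon in the first pair and the whole 3-base difference in the second pair.
EPN1-202: gaggaggccgaccagCCCCCGTCCTGCGGC
EPN1-201: gaggaggccgaccaggaggagcggatccgt
EPN1-202: aatggcacaacagCAGccgggggattcga
EPN1-201: ccaatggcacaacagccgggggattcgaca

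**Figure D1:**
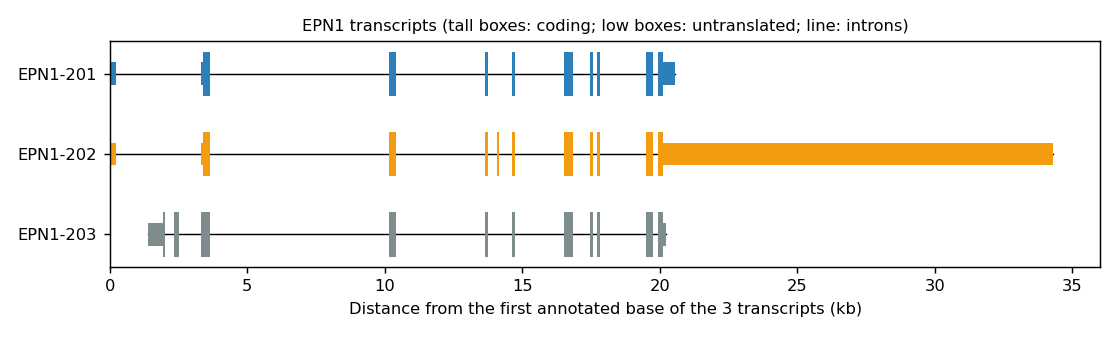
The 3 listed EPN1 transcripts, with distance from the first annotated base in kb on the x axis and 1 transcript per row, tall boxes for coding exons, low boxes for untranslated exons and lines for introns. EPN1-202 shares every exon base of EPN1-201 and runs 13767 bases past its end.

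The EPN1 total was 54.4 and 57.3 FPKM in the IgG RIP and 16.9 and 13.4 FPKM in the KIAA1429 RIP. The means were 55.9 ± 2.04 (SD, n = 2) and 15.2 ± 2.53 FPKM (SD, n = 2), which is 3.69-fold lower in the KIAA1429 RIP, with a log2 ratio of -1.88 ± 0.25. Both KIAA1429 libraries were below both IgG libraries, which is the value by which EPN1 was chosen.

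The listed EPN1 transcripts did not move together. EPN1-201 had 47.6 and 51.0 FPKM in the IgG RIP and 3.70 and 2.93 FPKM in the KIAA1429 RIP, which is 14.9-fold lower. EPN1-202 had 5.23 and 5.61 FPKM in the IgG RIP and 13.0 and 10.4 FPKM in the KIAA1429 RIP, which is 2.16-fold higher. EPN1-203 was scarce in all libraries, with 1.65 and 0.668 FPKM in the IgG RIP and 0.287 and 0 FPKM in the KIAA1429 RIP. EPN1-202, the only listed EPN1 transcript with the 75-base exon, held 9.60% and 9.79% of EPN1 FPKM in the IgG RIP. Its share was 76.5% and 78.1% in the KIAA1429 RIP. These are shares of FPKM assigned to whole transcripts. Reads over the exon were not examined, and the 13767 bases past the end of EPN1-201 also set EPN1-202 apart. On each of these measures the groups did not overlap. EPN1 was chosen for its lower total, of which EPN1-201 held 87.4% and 89.0% in the IgG RIP. The lower EPN1-201 values, and shares computed with them, are thus partly given by that choice. Groups also did not overlap for 29.7% of the 23375 tested transcripts, and a background for shares was not computed.

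Because FPKM divides fragments by transcript length, a fragment assigned to EPN1-202 adds less FPKM than the same fragment assigned to EPN1-201, by the length ratio of 6.89. Each FPKM value was therefore multiplied by the spliced length in kb and summed, a quantity that follows the fragments assigned to the gene at equal library depth and is called the length-weighted sum here. For EPN1 it was 201 and 213 FPKM × kb in the IgG RIP and 219.6 and 176 FPKM × kb in the KIAA1429 RIP. The means were 207 ± 8.41 and 198 ± 30.6 (SD, n = 2 each), with a log2 ratio of -0.06 ± 0.23, so the length-weighted difference was smaller than the spread between replicates and the groups overlapped. EPN1-202 made up 42.1% and 42.7% of this sum in the IgG RIP and 95.7% and 96.1% in the KIAA1429 RIP. Thus the lower EPN1 total in FPKM came with a shift of the assigned signal from the short to the long transcript, and the difference in signal per gene before division by length was within the replicate error. Why the assignment differed between the groups was not tested.

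**Figure D2:**
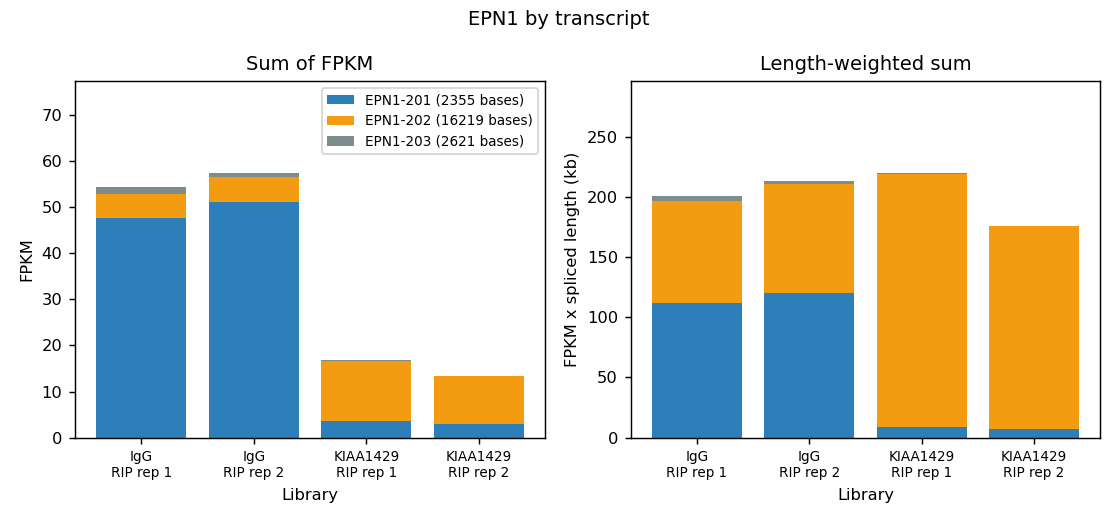
EPN1 in each library as stacked bars by transcript, in FPKM on the left and as FPKM × spliced length (kb) on the right. The FPKM bars are 54.4 and 57.3 in the IgG RIP and 16.9 and 13.4 in the KIAA1429 RIP, while the length-weighted bars lie between 176 and 219.6 in all 4 libraries.

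The same weighting could be computed for 8227 tested genes whose transcripts matched the annotation. Of 502 genes (6.1%) at least 2-fold lower by FPKM sum in the KIAA1429 RIP, 389 (77.5%) were also at least 2-fold lower by length-weighted sum. Of the 502, 44 (8.77%) were within 1.5-fold of no difference, and 7 came as close to no difference as EPN1. EPN1 itself is among the 502, the 44 and the 7. Of 594 genes (7.22%) at least 2-fold higher by FPKM sum, 466 (78.5%) were so by length-weighted sum, 49 (8.25%) were within 1.5-fold and 1 came as close as EPN1. A 2-fold FPKM difference that fell to within 1.5-fold by length-weighted sum, as seen for EPN1, was therefore uncommon (8.77% and 8.25%). It was not limited to EPN1. These shares include genes with 1 listed transcript, for which both ratios are the same, so the pattern cannot occur in them.

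**Figure D3:**
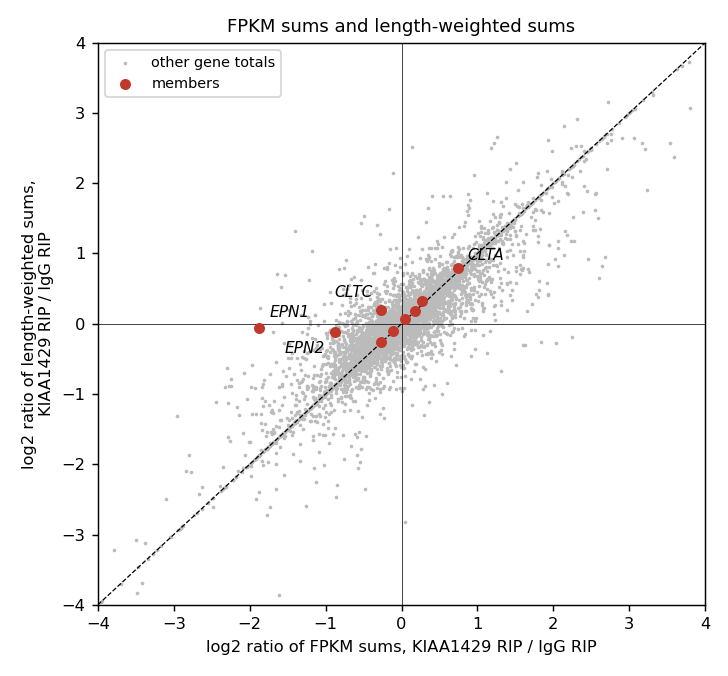
Log2 ratio of group means (KIAA1429 RIP over IgG RIP) by FPKM sum on the x axis and by length-weighted sum on the y axis, 1 point per gene, with the 9 endocytosis genes in red and the dashed line marking equal values (16 of 8125 points lie outside the axes). EPN1 lies at -1.88 on the x axis and -0.06 on the y axis, and the other members but EPN2 and CLTC lie near the dashed line.

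None of the other 8 gene totals passed the test, a log2 fold change beyond 1 with an adjusted p under 0.05 by limma across 11361 gene totals (0% of which were called in either direction). An unadjusted p under 0.05 was reached by 0 of the 8 genes, against 4.59% of all gene totals (522 genes). The adjusted p of the 8 genes in this fit was 0.997 in each case. CLTA reached an unadjusted p under 0.05 by limma under 3 of the alternatives, given below. The lowest adjusted p over all gene totals was 0.515. The median log2 fold change of the 8 genes on the log2(FPKM + 1) scale was -0.03, against 0.02 over all gene totals, and their standard errors ran from 0.28 to 0.48. Of the 9 gene totals, 0 reached a 2-fold higher mean and 1, EPN1, a 2-fold lower mean in the KIAA1429 RIP, where 7.58% and 6.14% of all gene totals did. By length-weighted sum, 0 of 9 reached a 2-fold difference either way, where 6.32% of 8227 genes were 2-fold higher and 5.41% lower. The groups did not overlap for 4 of 9 genes, with EPN1 and DNM2 lower and CLTA and CLTB higher in the KIAA1429 RIP, against 31.8% of all gene totals. Leaving out EPN1, which was chosen for this, 3 of 8 genes did not overlap, which is close to that background for so few genes.

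**Figure D4:**
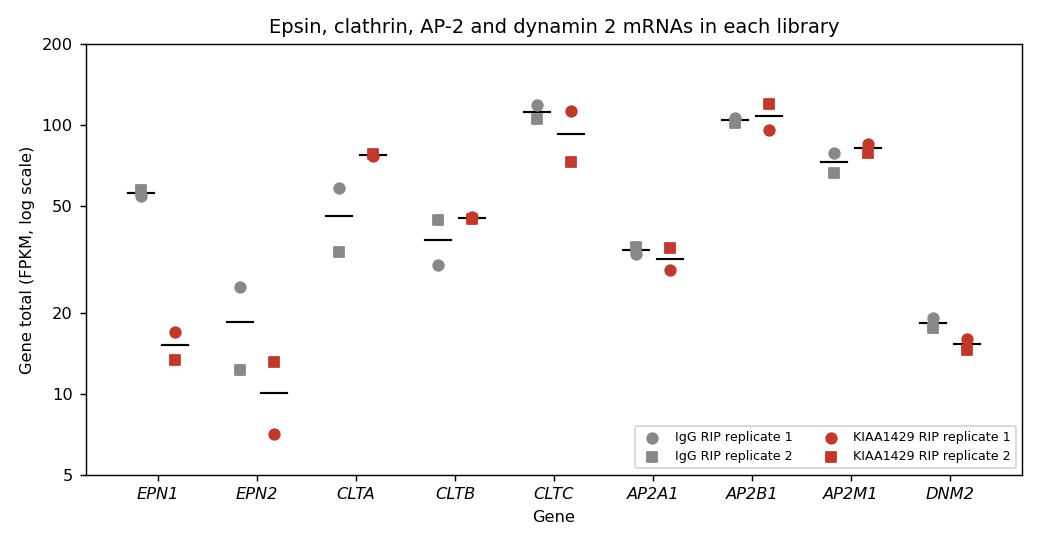
Gene totals in FPKM on a log axis for the 9 genes in each library (grey, IgG RIP, red, KIAA1429 RIP, circles and squares for replicates 1 and 2), with lines at the group means. The EPN1 libraries are far apart between groups, at 13.4 and 16.9 against 54.4 and 57.3, and the groups overlap for EPN2, CLTC and the AP-2 subunits.

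FPKM is scaled to length, so FPKM sums can be set side by side between genes. They depend on which transcripts the fragments were assigned to, as seen for EPN1. They describe precipitated RNA, with no input among these libraries, and are not expression levels. In the IgG RIP, CLTC (112 FPKM) and AP2B1 (104 FPKM) had the highest means, followed by AP2M1 (72.5 FPKM) and EPN1 (55.9 FPKM), then CLTA (46.0 FPKM), CLTB (37.3 FPKM) and AP2A1 (34.3 FPKM), and EPN2 (18.6 FPKM) and DNM2 (18.4 FPKM) were lowest. The IgG replicates overlapped between the neighbours EPN1 and CLTA, CLTA and CLTB, CLTB and AP2A1, CLTC and AP2B1, and EPN2 and DNM2. In the KIAA1429 RIP, EPN1 (15.2 FPKM) was close to DNM2 (15.3 FPKM), and CLTA (77.2 FPKM) was close to AP2M1 (81.9 FPKM).

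EPN2, the second epsin, lies at chr17:19140401-19240028. Its total was 24.9 and 12.3 FPKM in the IgG RIP and 7.06 and 13.1 FPKM in the KIAA1429 RIP, so the groups overlapped. The difference (log2 ratio -0.88 ± 0.96, limma log2 fold change -0.80, SE 0.48, adjusted p = 0.997) was within the replicate spread. The limma log2 fold change was -0.067 with protein_coding transcripts alone, -0.32 without IgG RIP replicate 1, -1.28 without IgG RIP replicate 2, -0.39 without KIAA1429 RIP replicate 1 and -1.20 without KIAA1429 RIP replicate 2. By length-weighted sum the log2 ratio of EPN2 was -0.11 ± 0.91, with 58.7 and 26.2 FPKM × kb in the IgG RIP and 31.9 and 46.7 FPKM × kb in the KIAA1429 RIP.

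For EPN2, 9 transcripts were listed, and none of them was above 0 in all 4 libraries. A coding exon of 171 bases at chr17:19188933-19189103 is in EPN2-201 and is skipped in EPN2-202 and EPN2-204. The form with the exon had 10.5 and 4.78 FPKM in the IgG RIP and 4.60 and 0 FPKM in the KIAA1429 RIP. The forms without it were listed at 0 in both IgG libraries and had 2.46 and 9.65 FPKM in the KIAA1429 RIP. In the KIAA1429 RIP, EPN2-202 had 0.101 and 9.24 FPKM and EPN2-204 had 2.36 and 0.410 FPKM, so each rested mostly on 1 library. Both were listed only through the KIAA1429 RIP. The junction is shown because it separates the forms with and without the exon, with the first bases of the exon in capitals. EPN2-201 did not pass the test (limma log2 fold change -1.78, SE 1.00, adjusted p = 0.879), nor did EPN2-202 (1.75, SE 1.31, adjusted p = 0.879).
EPN2-201: cctcctaccatggctCGCCTGAGGCCTCGC
EPN2-202: cctcctaccatggctccacctccccgcgag

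Clathrin triskelia are built from heavy chains, each with a light chain. CLTC, the heavy chain at chr17:57697050-57774317, had the highest IgG RIP mean of the members, overlapping with AP2B1, with 118 and 105 FPKM in the IgG RIP and 113 and 72.5 FPKM in the KIAA1429 RIP (log2 ratio -0.27 ± 0.47, limma log2 fold change -0.30, SE 0.32, adjusted p = 0.997). The groups overlapped, and the low value was that of KIAA1429 RIP replicate 2. Without that library the limma log2 fold change of CLTC was 0.019. By length-weighted sum, CLTC had 560.2 and 501 FPKM × kb in the IgG RIP and 619.8 and 601 FPKM × kb in the KIAA1429 RIP, a log2 ratio of 0.20 ± 0.12 (limma log2 fold change 0.20, SE 0.30, adjusted p = 0.994), so the sign changed with the weighting.

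The transcripts of CLTC show where these measures part. CLTC-201, of 8369 bases, had 19.2 and 20.6 FPKM in the IgG RIP and 30.3 and 70.9 FPKM in the KIAA1429 RIP. CLTC-202, of 5292 bases, had 67.1 and 48.7 FPKM in the IgG RIP and 62.8 and 1.45 FPKM in the KIAA1429 RIP. CLTC-210, of 2301 bases, had 19.4 and 30.9 FPKM in the IgG RIP and 14.7 and 0 FPKM in the KIAA1429 RIP. In KIAA1429 RIP replicate 2 nearly all signal was thus assigned to the longest of the 3 transcripts, whose last exon of 3229 bases is absent from CLTC-202, whereas CLTC-202 was the largest in KIAA1429 RIP replicate 1 as in the IgG libraries. None of the 3 passed the test, with limma log2 fold changes of 1.18 (SE 0.49), -2.22 (SE 1.57) and -2.69 (SE 1.36) and an adjusted p = 0.879 for each. The share of CLTC-201 in the gene was 16.2% and 19.6% in the IgG RIP and 26.8% and 97.7% in the KIAA1429 RIP, so it was higher in both KIAA1429 libraries, by far more in replicate 2.

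Clathrin light chains regulate the assembly of the coat. CLTA, at chr9:36190853-36212058, had 58.4 and 33.7 FPKM in the IgG RIP and 76.5 and 78.0 FPKM in the KIAA1429 RIP, the highest log2 ratio among the 9 genes (0.75 ± 0.56). The groups did not overlap, but CLTA did not pass the test (limma log2 fold change 0.79, SE 0.34, unadjusted p = 0.0557, adjusted p = 0.997), and the IgG replicates were further apart from each other than the higher of them was from the KIAA1429 libraries. The unadjusted p of CLTA by limma was 0.0442 with median scaling, 0.0144 with the replicate number as a block and 0.0133 without IgG RIP replicate 1, with an adjusted p of 0.994, 0.372 and 0.731. Its log2 fold change was 1.17 without IgG RIP replicate 1 and 0.40 without IgG RIP replicate 2. The length-weighted log2 ratio of CLTA was 0.80 ± 0.62. CLTB, at chr5:175819456-175843570, had 30.1 and 44.4 FPKM in the IgG RIP and 45.3 and 44.7 FPKM in the KIAA1429 RIP (log2 ratio 0.27 ± 0.40, limma log2 fold change 0.29, SE 0.31, adjusted p = 0.997). IgG RIP replicate 2 of CLTB was within 1 FPKM of both KIAA1429 libraries, and the difference between the groups rested on IgG RIP replicate 1.

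The light chain transcripts differ by short coding exons that are known from neurons. The form CLTA-202, which lacks a 36-base exon at chr9:36210622-36210657, had 51.9 and 23.6 FPKM in the IgG RIP and 76.3 and 65.4 FPKM in the KIAA1429 RIP. CLTA-207, which holds that exon, had 8.8e-05 and 6.97 FPKM in the IgG RIP and 0 and 10.9 FPKM in the KIAA1429 RIP, so it was above 1 FPKM only in the second replicate of each group. CLTB-202 lacks a 54-base exon at chr5:175823480-175823533 and had 19.99 and 44.4 FPKM in the IgG RIP and 45.3 and 44.7 FPKM in the KIAA1429 RIP. CLTB-201, which holds the exon, was listed at 3.86 FPKM in IgG RIP replicate 1 and at 0 in the other libraries. Thus the light chain mRNAs in these libraries were mostly of the form without the exon in both groups. The junctions are shown to identify the exons, whose first bases are in capitals.
CLTA-207: aaaagcaaacaacagCACAAACATAAACCA
CLTA-202: aaaagcaaacaacagggcagcagaagaagc
CLTB-201: caagatcaacaaccgGATCGCTGACAAAGC
CLTB-202: caagatcaacaaccgggcatccgaggaggc

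By FPKM sum, the AP-2 subunits had the smallest log2 ratios of the 9 genes, which did not hold by length-weighted sum. AP2A1, an alpha subunit at chr19:50270225-50310369 with 1 listed transcript, had 33.2 and 35.3 FPKM in the IgG RIP and 28.8 and 34.8 FPKM in the KIAA1429 RIP (log2 ratio -0.11 ± 0.20). AP2B1, the beta subunit at chr17:33905065-34053428 that binds clathrin, had 106 and 102 FPKM in the IgG RIP and 95.9 and 120.1 FPKM in the KIAA1429 RIP (log2 ratio 0.05 ± 0.23). AP2M1, the mu subunit at chr3:183892477-183901879 that binds tyrosine-based signals in cargo, had 78.8 and 66.3 FPKM in the IgG RIP and 85.3 and 78.4 FPKM in the KIAA1429 RIP (log2 ratio 0.17 ± 0.20). The groups overlapped for each subunit. By limma the log2 fold changes were -0.11 (SE 0.29) for AP2A1, 0.04 (SE 0.28) for AP2B1 and 0.18 (SE 0.28) for AP2M1, with an adjusted p = 0.997 for each.

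Within AP2B1, 12 transcripts were listed, and AP2B1-221, of 5702 bases, held most of the signal with 90.2 and 77.9 FPKM in the IgG RIP and 80.7 and 102 FPKM in the KIAA1429 RIP. AP2B1-216 had 0.00814 and 0.000794 FPKM in the IgG RIP and 0.0612 and 11.4 FPKM in the KIAA1429 RIP, so 1 library held nearly all of it. AP2M1 was spread over AP2M1-207, AP2M1-201 and AP2M1-202. AP2M1-207 had 44.9 and 22.9 FPKM in the IgG RIP and 43.7 and 43.9 FPKM in the KIAA1429 RIP. AP2M1-201 holds a 6-base coding exon at chr3:183898433-183898438 that AP2M1-202 lacks. They also differ outside this exon, with 1931 spliced bases in AP2M1-201 and 2091 in AP2M1-202. The shares that follow are thus of whole transcripts and not of the exon alone. AP2M1-201, which holds the exon, had 23.6% and 31.4% of the FPKM of these 3 transcripts in the IgG RIP. Its share was 29.1% and 21.4% in the KIAA1429 RIP. The share therefore overlapped between the groups, unlike that of EPN1-202, and the whole 6-base exon is in capitals here.
AP2M1-201: atcaagagtcagCATCAGacaaaagaagag
AP2M1-202: ggcatcaagagtcagacaaaagaagagcag

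DNM2, the widely expressed dynamin at chr19:10828755-10944164, had 19.1 and 17.6 FPKM in the IgG RIP and 16.0 and 14.6 FPKM in the KIAA1429 RIP. The groups did not overlap, with means of 18.4 ± 1.05 and 15.3 ± 0.992 FPKM (SD, n = 2 each) and a log2 ratio of -0.27 ± 0.12. DNM2 did not pass the test (limma log2 fold change -0.25, SE 0.32, unadjusted p = 0.458, adjusted p = 0.997). By length-weighted sum, DNM2 had 60.3 and 41.7 FPKM × kb in the IgG RIP and 38.1 and 47.1 FPKM × kb in the KIAA1429 RIP, and the groups overlapped (log2 ratio -0.26 ± 0.43).

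DNM2 transcripts differ at a pair of mutually exclusive exons of 139 bases and at a 12-base exon, all coding. The 12-base exon at chr19:10919245-10919256 is in DNM2-201, DNM2-203 and DNM2-205, whose sum was 17.1 and 12.6 FPKM in the IgG RIP and 3.86 and 9.89 FPKM in the KIAA1429 RIP. DNM2-202 and DNM2-204 lack it, and their sum was 0 in both IgG libraries and 6.86 and 2.85 FPKM in the KIAA1429 RIP. The share with the exon was thus 100% in both IgG libraries and 36.0% and 77.6% in the KIAA1429 libraries, without overlap. This rests on DNM2-202 and DNM2-204, which were listed only through the KIAA1429 RIP. DNM2-204 had 5.48 FPKM in KIAA1429 RIP replicate 1 and 0 in every other library. Neither transcript passed the test (limma, adjusted p = 0.879 for each). How often such shares fail to overlap in other genes was not computed. The exon copies at chr19:10906737-10906875 (DNM2-201) and chr19:10908056-10908194 (DNM2-203) are identical at 97 of 139 bases (69.8%). The share of the first copy was 92.6% and 63.9% in the IgG RIP and 45.7% and 98.0% in the KIAA1429 RIP, so it overlapped. The 12-base exon is in capitals in the first pair of sequences. The second pair gives the first 30 bases of each exon copy, 25 of them identical, with the differing bases in capitals.
DNM2-201: cccaatcagGGGGAGATCCTGgtgatccgc
DNM2-202: gccatccccaatcaggtgatccgcaggggc
DNM2-201: gacCgggctTttcaccccGgacTtggcAtt
DNM2-203: gacGgggctCttcaccccCgacAtggcCtt

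Among single DNM2 transcripts, DNM2-201 had 12.3 and 0 FPKM in the IgG RIP and 3.19 and 9.53 FPKM in the KIAA1429 RIP, and the replicates of a group differed more than the groups did. DNM2-205, of 2774 bases against 3633 in DNM2-201, had 3.56 and 8.07 FPKM in the IgG RIP and 0.324 and 0.103 FPKM in the KIAA1429 RIP. It was the only member transcript outside EPN1 with an unadjusted p under 0.05 (limma log2 fold change -2.41, SE 0.70, unadjusted p = 0.0200, adjusted p = 0.829), and it did not pass the adjusted threshold. DNM2-205 was listed only through the IgG RIP, with a mean of 5.82 FPKM there and 0.213 FPKM in the KIAA1429 RIP. Its unadjusted p is thus partly given by that listing and is no support for a difference. DNM2-219, a transcript of 538 bases, had 5.18 FPKM in KIAA1429 RIP replicate 1 and at most 0.0285 FPKM elsewhere.

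**Figure D5:**
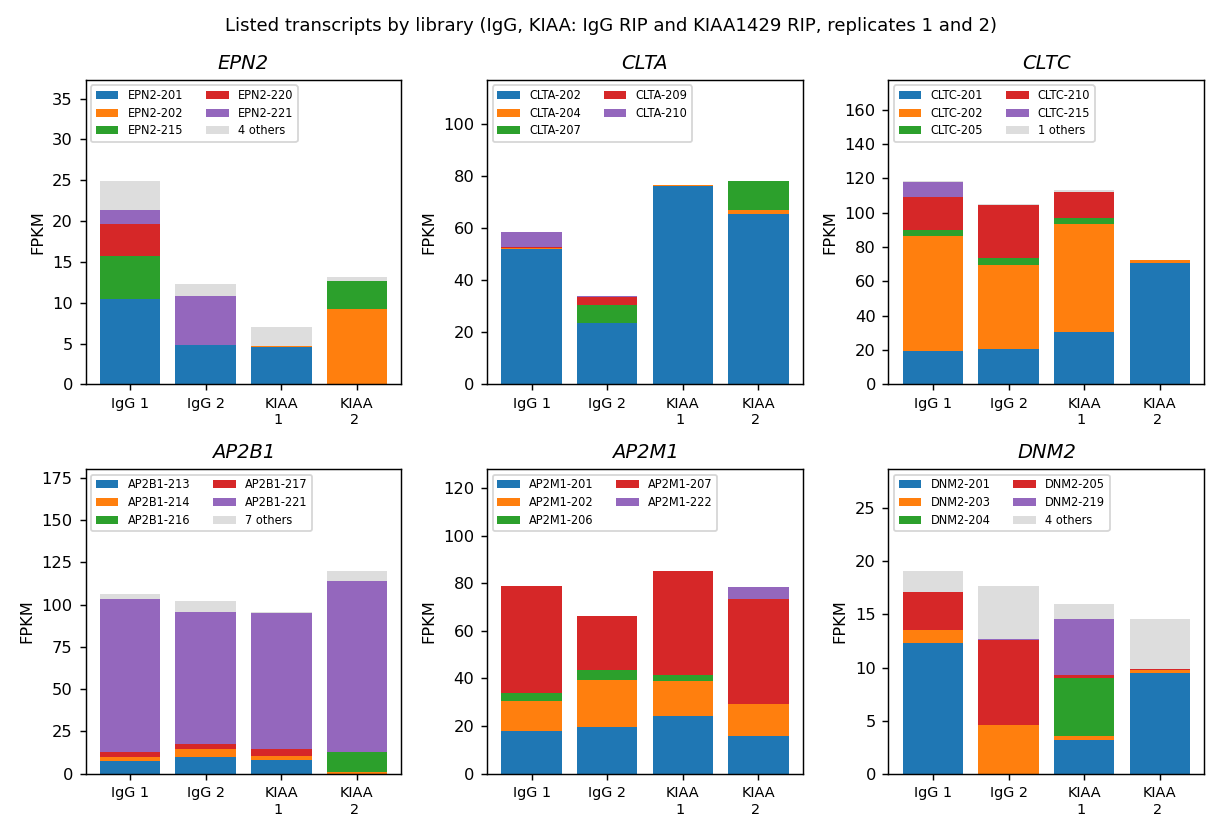
FPKM of the listed transcripts of EPN2, CLTA, CLTC, AP2B1, AP2M1 and DNM2 as stacked bars, 1 bar per library, with the most abundant transcripts in colour and the rest in grey. AP2B1 is mostly AP2B1-221 in each library, while CLTC in KIAA1429 RIP replicate 2 is nearly all CLTC-201, at 70.9 of 72.5 FPKM.

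Single transcripts of the members thus differed between libraries where the gene totals overlapped. Of the 53 member transcripts, 35 passed the filter of a mean of at least 1 FPKM, 17 were above 0 in all 4 libraries and 36 were at 0 in at least 1. Among all 53, the group means differed 2-fold or more for 12 higher and 25 lower transcripts in the KIAA1429 RIP, and the groups did not overlap for 8 higher and 13 lower transcripts. These counts include EPN1 and the transcripts that failed the filter, many of them at 0 in most libraries. The same share over all 34975 listed transcripts was not computed, so no excess in either direction can be read from these counts. Of the 33 transcripts outside EPN1 that passed, 7 reached a 2-fold higher mean and 11 a 2-fold lower mean, where 19.9% and 20.3% of all 23375 transcripts that passed did. Of the same 33, 14 did not overlap (6 higher and 8 lower, background 29.7% in either direction, 15.2% higher and 14.5% lower), 1 (DNM2-205, lower) had an unadjusted p under 0.05 (background 5.36%, or 1253 transcripts, of which 3.03% higher and 2.33% lower) and 0 were called by limma (background 0%), the lowest adjusted p being 0.829.

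The motif GGAC is part of the sequence context in which m6A is commonly found. It was counted on the sense strand of the spliced GRCh37 transcripts, with no other motif searched. EPN1-201 held 13 copies (5.52 per kb) and EPN1-202 held 53 (3.27 per kb), of which 39 (2.83 per kb) lay past the end of EPN1-201. Over 23044 listed protein_coding transcripts with matched ends, 97.8% held at least 1 copy and the median was 3.88 per kb for whole transcripts. For 3′ untranslated regions of at least 100 bases the median was 2.35 per kb, against 2.89 per kb in EPN1-202 and 4.88 per kb in EPN1-201, both above it. Of these transcripts, 54 were at least as long as EPN1-202. Among the most abundant transcripts of the 9 genes the median was 4.61 per kb, from 1.54 per kb in AP2M1-207 to 7.71 per kb in DNM2-201, the latter at percentile 90.4 of the protein_coding transcripts. These counts describe letters and not methylated sites.

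The wider pathway was followed in 86 genes in 5 lists, of which 73 were listed and 71 tested. None was called by limma, and 20 (28.2%) had groups that did not overlap, 8 higher and 12 lower, against 31.8% of all gene totals. At an unadjusted p under 0.05, 1 of the 71 was higher (3.17% of all gene totals) and 1 lower (1.43%). GGA3, an adaptor of the trans-Golgi network, was higher, with 0.579 and 3.04 FPKM in the IgG RIP and 10.7 and 6.28 FPKM in the KIAA1429 RIP (limma log2 fold change 1.87, SE 0.62, unadjusted p = 0.0193, adjusted p = 0.997). EGFR, a receptor that is internalised through clathrin-coated pits and binds epidermal growth factor, was lower, with 58.0 and 86.6 FPKM in the IgG RIP and 39.9 and 35.4 FPKM in the KIAA1429 RIP (limma log2 fold change -0.90, SE 0.32, unadjusted p = 0.0253, adjusted p = 0.997).

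Cargo receptors had the lowest median log2 fold change of the 5 lists, -0.30 over 8 genes, against 0.02 over all gene totals. The groups did not overlap for 5 of the 8, with EGFR, LRP1, IGF2R and MET lower and ASGR2 higher, against 31.8% of all gene totals (15.2% lower, 16.6% higher). All 5 were named for their values. By length-weighted sum the groups overlapped for LRP1 and IGF2R and did not for MET and ASGR2. For EGFR no length-weighted sum was available, so its difference could not be checked in this way. IGF2R, which carries lysosomal enzymes, had 10.9 and 10.3 FPKM in the IgG RIP and 5.999 and 5.47 FPKM in the KIAA1429 RIP. The transferrin receptor TFRC had 12.6 and 10.1 FPKM in the IgG RIP and 13.5 and 12.3 FPKM in the KIAA1429 RIP, and the groups overlapped.

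Adaptors and scaffolds had a median of 0.04 over 22 tested genes, 5 of which did not overlap (AP2S1 and ARRB2 were higher, and EPS15L1 and CLTCL1 were among those lower). AP2S1, the small subunit of the AP-2 complex, had 57.0 and 71.6 FPKM in the IgG RIP and 91.8 and 80.6 FPKM in the KIAA1429 RIP. EPS15, a scaffold that binds AP-2 and epsins at nascent pits, had 21.1 and 21.2 FPKM in the IgG RIP and 17.6 and 25.4 FPKM in the KIAA1429 RIP, and overlapped. Genes of membrane bending and scission had a median of 0.15 over 13 genes, with 3 not overlapping (BIN1 and PACSIN3 higher, SNX18 lower). Lipid enzymes, kinases and uncoating factors had a median of -0.09 over 12 genes, with 3 not overlapping (SYNJ2, PIP5K1C and BMP2K lower). The other adaptor complexes had a median of 0.19 over 16 genes, with 4 not overlapping (AP1M1, AP1S1 and GGA3 higher, GGA2 lower). Of the genes named here as not overlapping, BIN1, AP1S1 and GGA2 overlapped by length-weighted sum, and AP2S1 and BMP2K had no such sum. Apart from EPS15, the genes in these sentences were named for their values.

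The gene totals most like EPN1 over the 4 libraries were sought among 11360 others, by the root mean square distance of log2(FPKM + 1) values centred on each gene. They were AC090833.1 at a distance of 0.0928, MX2 at 0.131 and AC009065.1 at 0.135. All 3 were scarcer than EPN1. AC090833.1 had 5.79 and 5.31 FPKM in the IgG RIP and 0.854 and 0.537 FPKM in the KIAA1429 RIP. MX2 had 2.24 and 2.26 FPKM in the IgG RIP and AC009065.1 had 2.77 and 2.44 FPKM. Both were at 0 in the KIAA1429 RIP and so were listed only through the IgG RIP. The MX2 values came from MX2-204 in IgG RIP replicate 1 and MX2-203 in replicate 2, each at 0 in the other. The likeness holds on the log2(FPKM + 1) scale. Without the added 1, the log2 ratio of AC090833.1 was -2.996, against -1.88 for EPN1.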

How the data were processed

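RNA precipitated with anti-KIAA1429 or normal IgG from HCCLM3 cells was analysed (2 replicates per group, 4 libraries), with groups taken from the labels. The authors selected poly(A) RNA, sequenced it and used HISAT2 for alignment to GRCh37/hg19, while the submitters' processing notes name Bowtie2 2.1.0. The authors deposited FPKM values per transcript, and the tool and annotation release behind them are not given in the sources used here. In each listed transcript at least 1 group mean was 0.500 FPKM or more, so transcripts scarce in both groups are outside this work. Depth is unknown, and no counting interval is given.

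FPKM was summed per gene name. Features with a mean of at least 1 FPKM were tested as log2(FPKM + 1), which understates changes of scarce features, with limma 3.58.1 in R 4.3.3 (lmFit, eBayes with trend, two-sided, Benjamini-Hochberg), and called at a log2 fold change beyond 1 and adjusted p under 0.05. The fit was tested on simulated data, where calling of the added changes was required only at a spread below the fitted one. At the fitted spread only their median estimate was required to be near the true value. The simulation therefore does not show that changes would be called in data like these. Errors given for log2 ratios combine the SDs of the log2 values in both groups in quadrature. Spliced lengths, exons and sequences came from GENCODE release 44 mapped to GRCh37 and that genome, for the 30016 transcripts (85.8%) whose ends differed from the deposited ones by at most 10% of spliced length. Length-weighted sums were kept where such transcripts held at least 80% of a gene's FPKM in each library (9859 genes). They were added after the data were seen. Alternatives were other pseudocounts, filters and scalings, a replicate block, protein_coding sums and each library left out.

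The members and lists were chosen with earlier results of these data known. The genes named are the members, the 3 gene totals most like EPN1, genes of the wider lists with an unadjusted p under 0.05 and groups that did not overlap, TFRC, EPS15 and VIRMA, and others are marked. Some genes that this rule or the lists hold are not reported here. Both groups carry replicate numbers 1 and 2, with no statement that a number marks a shared culture or day. Protein sequence features were planned but not computed. Tables and plots were made with pandas 2.3.3, numpy 2.4.6 and matplotlib 3.10.9 in Python 3.11.15.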

Additional observations from a re-analysis of the deposited data

How the results depend on the processing

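The EPN1 log2 fold change on the log2(FPKM + 1) scale was -1.82. With length-weighted sums it was -0.07 and the groups overlapped, while under the other alternatives EPN1 was lower and EPN1-202 higher in the KIAA1429 RIP. With a pseudocount of 0.1 that of EPN1-201 was -3.86 in place of -3.55. With length-weighted sums 0 members were at least 2-fold lower, against 1 by FPKM. Leaving out 1 library at a time gave 0 to 1 members at least 2-fold higher (1 without IgG RIP replicate 1) and 1 to 2 lower (2 without IgG RIP replicate 2 or KIAA1429 RIP replicate 2). With a pseudocount of 1, 16 member transcripts were at least 2-fold lower, against 25. The sign turned for CLTC with length-weighted sums (0.20, against -0.30) and, with quantile normalization, for AP2B1 (-0.094) and AP2B1-221 (-0.078). Leaving out 1 library at a time, the log2 fold changes ran from -0.61 to 0.019 for CLTC, from -4.57 to 0.13 for CLTC-202, from -0.12 to 0.20 for AP2B1 and from -0.054 to 0.27 for AP2B1-221, with the sign turned without KIAA1429 RIP replicate 2. They ran from -0.24 to 0.021 for AP2A1 (turned without KIAA1429 RIP replicate 1), and from -1.003 to 2.73 for DNM2-201 and from -0.036 to 0.91 for AP2M1-207 (both turned without IgG RIP replicate 2). The cause was not tested. None of these values passed the threshold in either form.

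With the replicate number as a block, 12 gene totals were called higher and 1 lower, against 0 and 0, and at a log2 fold change beyond 1 with an unadjusted p under 0.05 there were 415 higher and 220 lower (266 and 135 without the block). No member was called, with adjusted p from 0.372 to 0.987 over the 8 tested genes by limma, and the block gave 0 called transcripts. The deviations of same-numbered libraries from their group means correlated at 0.03 over transcripts and 0.19 over gene totals. The Spearman correlation of gene totals was 0.885 between both replicates 1 and 0.869 between both replicates 2. It was 0.849 between the IgG libraries and 0.872 between the KIAA1429 libraries. Across groups with unlike numbers it was 0.868 and 0.833. Over single transcripts the Spearman correlation was lower, at 0.487 between the IgG libraries and 0.541 between the KIAA1429 libraries. Across groups the transcript values ran from 0.486 to 0.537. Values of single transcripts were thus less reproducible between libraries than gene totals. Whether same-numbered libraries share more than a number was not tested. With 2 libraries a group the replicate spread limits the precision of each difference, and unknown depth limits what can be said of scarce transcripts and of transcripts listed at 0.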
